A study of Mus musculus with 6 samples.

Results

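The primitive endoderm genes examined here are 10 markers of the first endoderm of the mouse embryo: the transcription factors Gata6, Gata4, Sox17, Sox7, Foxa2 and Hnf4a, the growth factor receptor Pdgfra, the endocytic adaptor Dab2, and the endocytic receptor pair Cubn and Amn. They were chosen by name. Of the 10, 8 had a row among the 17110 genes of the authors' deposited table, and Sox17 and Foxa2 had no row in the tables used here, so no value is given for them. The RNA came from mouse embryonic stem cells of the line TG2A, all carrying a fluorescent reporter under MERVL, an endogenous retrovirus active in the two-cell embryo and in a minor fraction of cultured embryonic stem cells, the two-cell-like cells. All cells grew in serum with leukemia inhibitory factor and were separated by flow sorting into a DsRed2+ group and a DsRed2- group, with 3 samples in each, collected on different dates. The reporter is the only allele the labels name, and a sort on it selects cells by the fluorescence of the reporter, not by lineage.

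The primitive endoderm arises in the blastocyst beside the pluripotent epiblast. Cells that respond to Fgf4 through Fgfr1, Fgfr2 and the ERK kinases keep Gata6 and lose Nanog, after which Sox17, Gata4 and Sox7 follow, and Pdgfra marks these cells at the surface. The tissue later gives the parietal endoderm, which secretes a thick basement membrane, and the visceral endoderm, which takes up nutrients through the cubilin and amnionless complex with megalin (Lrp2) and Dab2, and which uses Hnf4a for its metabolic genes. Embryonic stem cell cultures can hold rare cells of this kind, and forced Gata6 or Gata4 can turn stem cells into extraembryonic endoderm.

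In the comparison of the sorted groups, 2 of the 8 genes passed an adjusted p-value of 0.05 in the authors' deposited table, and they lay on opposite sides. Hnf4a was on the positive side and Dab2 on the negative side. For comparison, 30.5% of all genes in the authors' deposited table passed, 14.6% on the positive and 15.9% on the negative side, so 2 of 8 is near the background. A positive log2 fold change means a higher level in the group that the table uses as numerator, which it does not name, as it names neither group. Since the labels describe no further group, the table was read as a comparison of DsRed2+ with DsRed2- cells. In bulk RNA, fewer cells of a type and less RNA per cell cannot be told apart.

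The promoters of the genes past the threshold are shown because Hnf4a and Dab2 each have alternative annotated starts that a count per gene cannot separate. RefSeq (GRCm38.p6, an older build than the GRCm39 named in the submitters' processing notes) gives 2 windows for each, from 250 bases before to 50 bases after a start. The Hnf4a starts are 40298 bases apart and the Dab2 starts 86959 bases apart, all on the plus strand. Capitals mark matches to AGATAA or its reverse complement TTATCT, a form of the core bound by GATA factors. Other forms of that core were not searched and are not marked.
Hnf4a, upstream start, chr2:163506607-163506906: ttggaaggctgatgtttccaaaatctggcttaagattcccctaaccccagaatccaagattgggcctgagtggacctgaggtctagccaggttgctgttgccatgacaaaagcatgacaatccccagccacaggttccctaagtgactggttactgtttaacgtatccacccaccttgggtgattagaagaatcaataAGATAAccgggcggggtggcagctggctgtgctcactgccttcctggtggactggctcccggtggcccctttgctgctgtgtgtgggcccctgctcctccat
Hnf4a, downstream start, chr2:163546905-163547204: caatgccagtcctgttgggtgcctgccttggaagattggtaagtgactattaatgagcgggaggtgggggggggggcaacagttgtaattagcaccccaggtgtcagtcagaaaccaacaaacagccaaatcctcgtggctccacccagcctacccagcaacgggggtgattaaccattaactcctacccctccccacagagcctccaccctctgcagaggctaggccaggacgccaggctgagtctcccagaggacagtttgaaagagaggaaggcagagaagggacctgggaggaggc
Dab2, upstream start, chr15:6299539-6299838: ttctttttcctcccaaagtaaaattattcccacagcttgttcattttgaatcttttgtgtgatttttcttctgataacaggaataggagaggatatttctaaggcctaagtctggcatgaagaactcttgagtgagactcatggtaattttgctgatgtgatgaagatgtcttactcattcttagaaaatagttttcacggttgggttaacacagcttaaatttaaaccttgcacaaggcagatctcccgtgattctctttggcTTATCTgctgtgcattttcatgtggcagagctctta
Dab2, downstream start, chr15:6386498-6386797: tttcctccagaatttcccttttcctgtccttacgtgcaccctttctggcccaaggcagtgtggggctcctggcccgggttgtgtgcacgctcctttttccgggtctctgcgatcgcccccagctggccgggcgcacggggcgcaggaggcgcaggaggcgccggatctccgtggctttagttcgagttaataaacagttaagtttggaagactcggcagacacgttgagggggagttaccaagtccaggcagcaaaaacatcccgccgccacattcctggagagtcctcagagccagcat

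The upstream window of Hnf4a held AGATAA at bases 199 to 204, and the upstream window of Dab2 held TTATCT at bases 265 to 270. Either form occurred in 11.2% of the 32851 RefSeq windows of this length. The downstream windows of Hnf4a and Dab2 held none. Other cores searched on both strands were ACAATG for SOX factors, TGTTTAC for FOX factors and CAAAGTCCA for HNF4, present in 12.6%, 3.65% and 0.475% of all windows, and none was in these 4 windows. RefSeq windows were matched for 6 of the 10 genes by symbol. GC content was 37.7% in the upstream and 59.3% in the downstream window of Dab2, against 54.0% and 57.3% in those of Hnf4a. A match describes letters in a window and does not show binding.

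The transcription factors were few in reads. Gata6, the factor that first sets primitive endoderm apart from epiblast, had a mean normalized count of 9.05 over the compared libraries and a log2 fold change of -1.37 ± 0.81 (SE) in the authors' deposited table (adjusted p = 0.207). With equal groups of 3, that mean and fold change imply fitted levels of 5.04 normalized counts in the numerator and 13.1 in the denominator group, a calculation from the authors' deposited table that is used below for every gene. The 95% interval of the Gata6 fold change ran from -2.97 to 0.22 in the authors' deposited table, so it spans a large decrease and a slight increase. Gata4, its close relative in the same lineage, had a mean count of 14.7 and a log2 fold change of -0.59 ± 0.71 (SE) in the authors' deposited table (adjusted p = 0.592). Its implied levels from the authors' deposited table were 11.7 in the numerator and 17.6 in the denominator group. Sox7, a late factor of the lineage that vascular cells also use, stood near 0 in the authors' deposited table, at 0.067 ± 0.80 (SE) (adjusted p = 0.965). Its mean count in the authors' deposited table was 10.2, with implied levels of 10.4 and 9.92. The 95% intervals of Gata4 and Sox7 in the authors' deposited table, from -1.98 to 0.81 and from -1.50 to 1.64, also included 0.

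Hnf4a, the nuclear receptor that drives metabolic genes in visceral endoderm, liver and gut, was the factor past the threshold. Its mean count was 20.0 in the authors' deposited table, with implied levels of 36.1 normalized counts in the numerator and 3.82 in the denominator group. The log2 fold change of Hnf4a was 3.24 ± 0.86 (SE) in the authors' deposited table (adjusted p = 0.000983), a 9.45-fold difference with a 95% interval from 2.94-fold to 30.4-fold. That error was large for the level: among the 500 genes nearest in mean count in the authors' deposited table, the median standard error was 0.54, and 94.8% had a smaller one. Of those 500 genes, 19.6% passed the threshold in the authors' deposited table. Values per library were not analysed here, so whether 1 library carries the Hnf4a difference is not known.

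Pdgfra, the receptor used to sort living primitive endoderm cells, had a mean count of 9.33 and a log2 fold change of -0.88 ± 0.79 (SE) in the authors' deposited table (adjusted p = 0.44). The implied Pdgfra levels from the authors' deposited table were 6.57 in the numerator and 12.1 in the denominator group, and the 95% interval of its fold change, from -2.42 to 0.66, included 0.

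The endocytic genes did not share a direction. Dab2, the clathrin adaptor that carries receptors such as megalin into the cell, had the most reads of the 8 genes, with a mean count of 148 in the authors' deposited table. Its implied levels from the authors' deposited table were 53.4 normalized counts in the numerator and 242 in the denominator group. The log2 fold change of Dab2 was -2.18 ± 0.28 (SE) in the authors' deposited table (adjusted p = 1.1e-13), which is 4.53-fold lower in the numerator group with a 95% interval from 3.11-fold to 6.6-fold. By p-value, Dab2 ranked 552 of 17110 in the authors' deposited table. Among the 500 genes nearest to Dab2 in mean count, 43.0% passed the threshold in the authors' deposited table. Dab2 is also made by trophoblast, kidney and several mesenchymal cells.

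Cubn encodes cubilin, the large ligand-binding part of the uptake receptor. It had a mean count of 12.9 in the authors' deposited table, with implied levels of 16.6 and 9.3 and a log2 fold change of 0.83 ± 0.69 (SE) (adjusted p = 0.398). Amn encodes amnionless, which anchors cubilin in the membrane. Its mean count was 10.0 in the authors' deposited table, with implied levels of 10.7 and 9.36 and a log2 fold change of 0.19 ± 0.70 (SE) (adjusted p = 0.879). The 95% intervals from the authors' deposited table were -0.52 to 2.18 for Cubn and -1.18 to 1.56 for Amn, and both included 0.

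**Figure D1:**
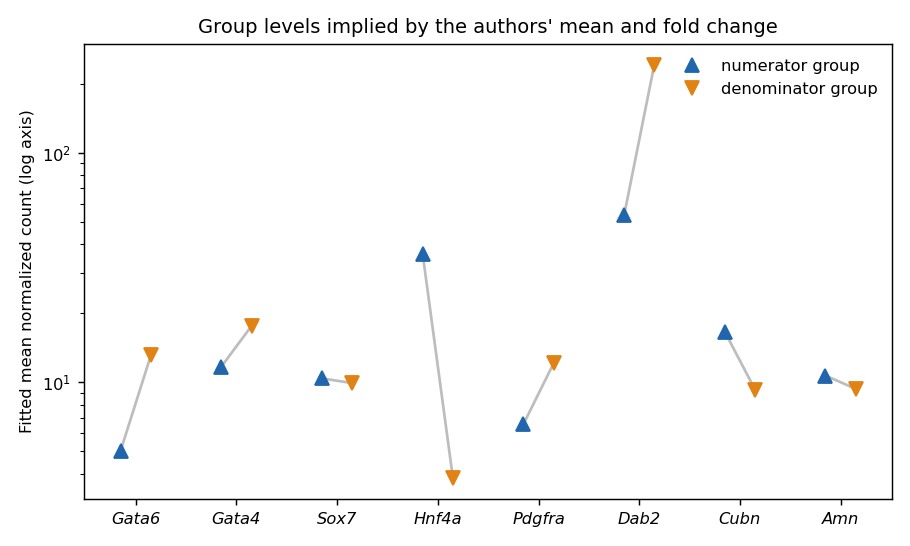
Implied mean normalized count (log axis) of each of the 8 primitive endoderm genes in the numerator group (upward triangles) and the denominator group (downward triangles), computed from the authors' deposited mean and fold change with equal groups, without error bars. Hnf4a is at 36.1 and 3.82 and Dab2 at 53.4 and 242, while the other 6 genes lie between 5.04 and 17.6.

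**Figure D2:**
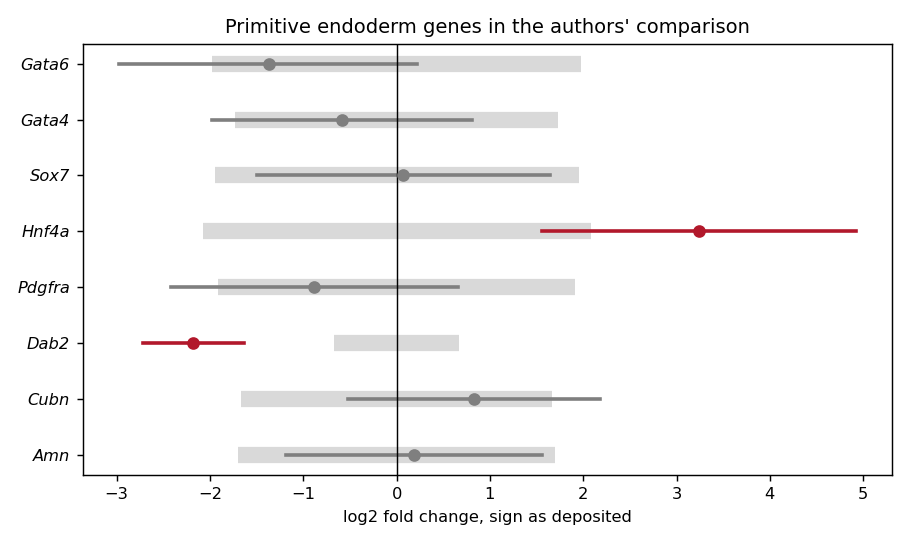
Log2 fold change (horizontal axis, sign as deposited) of each gene, with points for the estimate and lines for the 95% interval from the authors' standard error. Grey bands show fold changes too small to pass the threshold at that gene's error. Hnf4a and Dab2, in red, lie outside their bands, and the 6 others have intervals that include 0.

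The low counts set what could be seen. The threshold corresponded to a p-value of 0.0152, a Wald statistic of 2.43 in the authors' deposited table. For the 6 genes that did not pass, a fold change between 3.19-fold for Cubn and 3.93-fold for Gata6 would have been needed at their standard errors in the authors' deposited table. Dab2 needed 1.59-fold. These are limits on the estimated fold change, not the smallest true change that could be found. The results of Gata6, Gata4, Sox7, Pdgfra, Cubn and Amn thus do not show equal levels. The 7 genes other than Dab2 had mean counts from 9.05 to 20.0, a range that holds 1741 genes of the authors' deposited table. In that range, 19.1% of genes in the authors' deposited table passed the threshold, 9.76% on the positive and 9.3% on the negative side, against 1 of the 7.

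**Figure D3:**
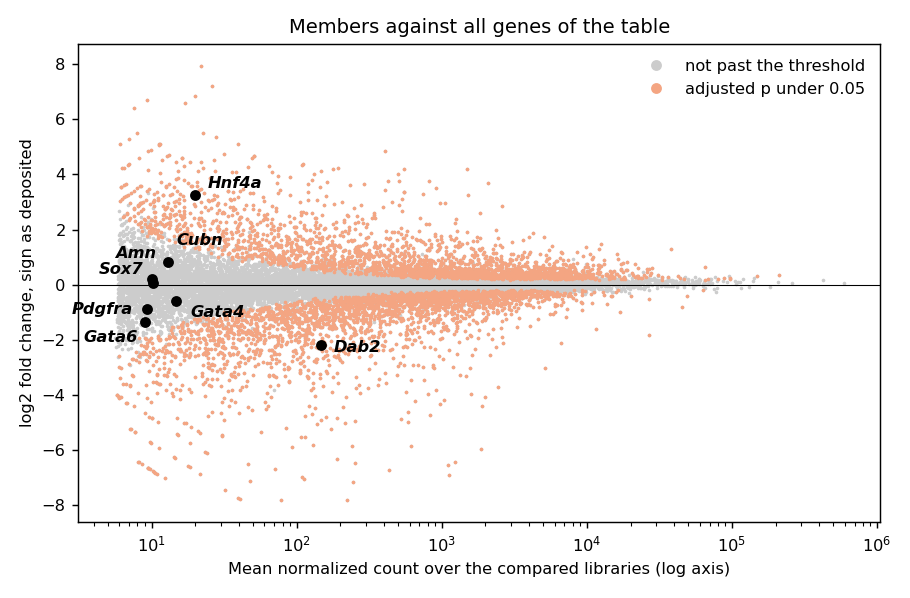
Mean normalized count over the compared libraries (log axis) against log2 fold change for all 17110 genes of the authors' deposited table, with genes past an adjusted p-value of 0.05 in orange. The primitive endoderm genes (black) sit at the left edge, with means of 20.0 or lower except Dab2 at 148.

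Per kilobase of the longest GENCODE M21 transcript, the order of the levels was Dab2, Amn, Hnf4a, Gata4, Sox7, Gata6, Pdgfra and Cubn. From the mean counts of the authors' deposited table, Dab2 had 31.7 normalized counts per kilobase, Amn 5.89, Hnf4a 4.58 and Gata4 4.31. Sox7 followed with 3.08, Gata6 with 2.39, Pdgfra with 1.37 and Cubn with 1.15 per kilobase, also from the authors' deposited table. The median gene of the authors' deposited table had 132. Dab2 stood at the 29.8th percentile of all genes on this scale and Cubn, whose transcript is 11.3 kilobases long, at the 0.4th. Neighbours in this order could not be separated, since no spread over samples was available. Megalin (Lrp2), which works with cubilin, had 241 normalized counts per kilobase from the authors' deposited table, far above Cubn and Amn. Exons of Cubn, Dab2, Gata6 and Pdgfra overlap other annotated genes in GENCODE M21, mostly on the opposite strand, and the strandedness of the counting is not given in the sources used here. None of these overlapping genes had a row in the authors' deposited table.

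Family members and partners were examined to see whether the genes moved with their relatives. The share of all genes that passed, 30.5%, stands beside each count that follows. It varied with the count: 19.6% of genes near the mean of Hnf4a and 43.0% near that of Dab2 passed. The share at the counts of each list was not computed. Of the family members with a row, Sox15 passed the threshold, at 0.59 ± 0.23 (SE) in the authors' deposited table (adjusted p = 0.035). The other 6 of 7 did not pass, among them Sox18, the third factor of the Sox7 and Sox17 subfamily, at -0.75 ± 0.85 (SE) in the authors' deposited table. Gata5 and Hnf4g had no row used here.

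Of the ligands and partners of Pdgfra, Pdgfc was positive at 1.44 ± 0.20 (SE) in the authors' deposited table (adjusted p = 6.4e-12). Pdgfb was negative at -1.28 ± 0.30 (SE) in the authors' deposited table (adjusted p = 0.000205). Pdgfa, the ligand that acts on Pdgfra in the blastocyst, had 0.38 ± 0.24 (SE) and Pdgfrb -0.54 ± 0.37 (SE) in the authors' deposited table, both short of the threshold. Among 8 endocytic partners, 2 passed, both negative: Dab1, the neuronal relative of Dab2, at -0.86 ± 0.22 (SE) and the clathrin adaptor subunit Ap2b1 at -0.35 ± 0.07 (SE) in the authors' deposited table. Lrp2 had 0.25 ± 0.15 (SE) in the authors' deposited table (adjusted p = 0.22). The difference between Dab2 and these partners was not tested.

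The FGF and ERK input to the lineage was well measured, with mean counts from 522 to 17716 in the authors' deposited table. Of its 16 genes, 8 passed the threshold, 4 on each side, and in the authors' deposited table their median log2 fold change of -0.0035 was close to the 0.0097 of all genes. Fgf4, the epiblast ligand, was positive at 1.04 ± 0.15 (SE) in the authors' deposited table (adjusted p = 3.52e-10). The receptors lay on the other side, Fgfr2 at -0.66 ± 0.16 (SE) and Fgfr1 at -0.31 ± 0.10 (SE) in the authors' deposited table (adjusted p = 0.000343 and 0.00714). Dusp6, an ERK phosphatase induced by the pathway, was negative at -1.02 ± 0.14 (SE) and Etv5, an ETS factor that is also a target, positive at 0.47 ± 0.10 (SE) in the authors' deposited table. Nanog, the epiblast factor that opposes Gata6, was positive at 0.73 ± 0.15 (SE) in the authors' deposited table (adjusted p = 5.75e-06).

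Among 12 other genes used for primitive endoderm, 11 had a row and 7 passed in the authors' deposited table, 4 positive and 3 negative. The 7 were 63.6% of those with a row, against 30.5% of all genes. The X-linked homeobox gene Rhox5 was positive at 2.95 ± 0.17 (SE) in the authors' deposited table, and Klf5 at 0.60 ± 0.07 (SE). Fst, the activin inhibitor follistatin, was negative at -3.21 ± 0.33 (SE) in the authors' deposited table, and the transcriptional coregulator Cited1 at -3.26 ± 0.62 (SE). Klf5 and Rhox5 are not limited to endoderm, and embryonic stem cells express both.

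Genes of the descendants of the lineage were also mixed. Of 14 parietal endoderm genes, 12 had a row and 10 passed in the authors' deposited table, 3 positive and 7 negative. The 10 were 83.3% of those with a row, against 30.5% of all genes. Basement membrane genes lay on both sides. The positive genes were Lama1, Lamc1 and Nid1, at 1.91 ± 0.16, 0.91 ± 0.08 and 1.69 ± 0.17 (SE) in the authors' deposited table. The laminin chain Lamb1 was negative at -0.24 ± 0.09 (SE) (adjusted p = 0.0319). The type IV collagen chains Col4a1 and Col4a2 were negative at -1.01 ± 0.16 and -1.22 ± 0.26 (SE) in the authors' deposited table, as was the collagen chaperone Serpinh1 at -1.65 ± 0.25 (SE). Of 17 visceral endoderm genes, 9 had no row used here, among them Afp, Ttr and Apoa1, the secreted proteins that define this tissue. Of the 8 with a row in the authors' deposited table, 3 passed: Tdh at 0.60 ± 0.10 and Apoe at 0.48 ± 0.19 (SE), both abundant in embryonic stem cells, and Cited1, given above. Apob, a lipoprotein gene that Hnf4a activates in liver, had 0.87 ± 0.61 (SE) in the authors' deposited table (adjusted p = 0.299). The remaining visceral genes did not pass either, and their signs were mixed. Spink1 had 0.87 ± 0.46, Rbp4 -0.51 ± 0.51, Ihh -0.42 ± 0.83 and Trf -0.10 ± 0.26 (SE) in the authors' deposited table. A link between Hnf4a and these genes was not tested. Of 8 anterior visceral endoderm genes, 5 had a row and 3 passed in the authors' deposited table, all negative: Lefty1 at -2.12 ± 0.41, Lhx1 at -6.27 ± 1.42 and Otx2 at -0.56 ± 0.23 (SE). Lefty1 and Otx2 had mean counts of 2621 and 814 in the authors' deposited table, and Cer1, Dkk1 and Gsc had no row used here. Which cells held the RNA of Lefty1 and Otx2 was not tested. The implied level of Lhx1 in the numerator group was 0.365 normalized counts from the authors' deposited table, so its fold change rests on hardly any reads there. The medians from the authors' deposited table were -0.58 for the parietal, 0.19 for the visceral and -0.56 for the anterior visceral list.

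**Figure D4:**
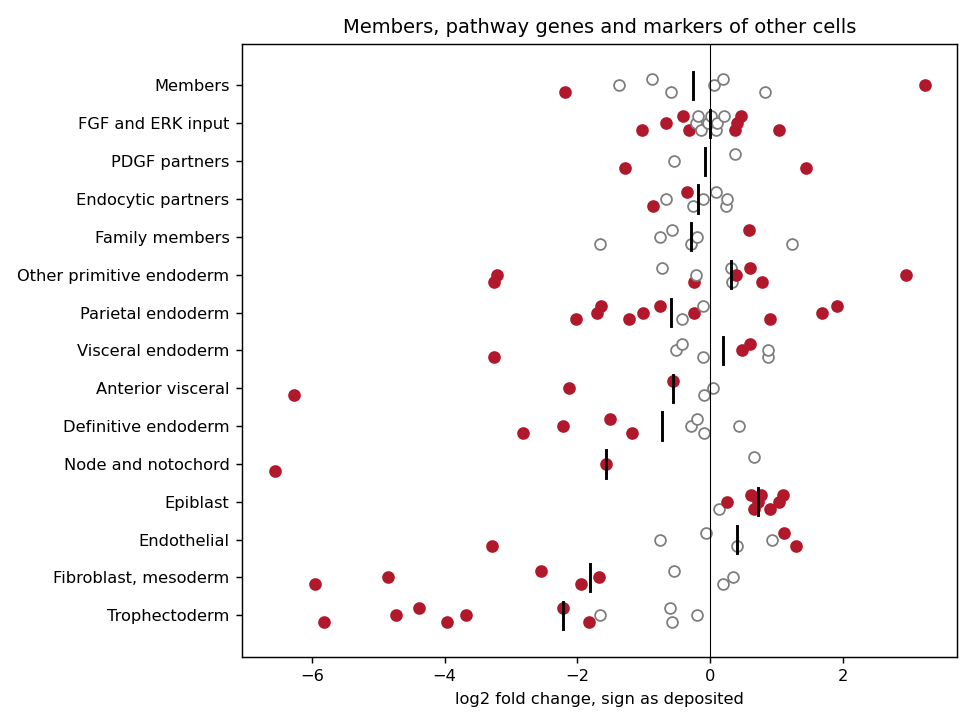
Log2 fold change (horizontal axis, sign as deposited) of every gene with a row, by list, with filled points for an adjusted p-value under 0.05 and vertical bars for list medians. The 8 primitive endoderm genes spread from -2.18 to 3.24 around a median of -0.26, while all 11 trophectoderm genes lie below 0 and all 9 epiblast genes above.

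Markers of other cells that could hold RNA of these genes differed between the groups as well. Of 11 trophectoderm markers with a row, 7 passed (63.6%, against 30.5% of all genes), all negative. Among them were the keratins Krt19 at -4.73 ± 0.31 and Krt8 at -4.39 ± 0.52 (SE) in the authors' deposited table. The transcription factors Gata2, Gata3, Tfap2c and Tead4 did not pass, and Elf5 had no row used here. The median over the 11 was -2.2, and from the authors' deposited table came summed implied levels of 2195 in the numerator and 11454 in the denominator group. Of 8 fibroblast and mesoderm markers with a row, 5 passed, all negative, such as Tagln at -5.96 ± 0.50 and Twist1 at -2.54 ± 0.35 (SE), with summed implied levels of 4943 and 8122 from the authors' deposited table, and Col3a1, Dcn, Lum and Postn had no row used here. Of 8 definitive endoderm markers with a row, 4 passed, all negative, such as Trh at -1.18 ± 0.16 and Eomes at -2.22 ± 0.33 (SE), with summed implied levels of 7019 and 12407 from the authors' deposited table, while Cer1, Gsc and Gata5 had none. The genes of these lists that passed lay on the side of Dab2, while Vim at 0.20 ± 0.23, Thy1 at 0.34 ± 0.43 and Kit at 0.44 ± 0.20 (SE) had positive values short of the threshold in the authors' deposited table. The part of these cells in the difference of Dab2 was not tested. A few abundant genes dominated the sums of the trophectoderm, the fibroblast and mesoderm, and the definitive endoderm lists. In the trophectoderm list, Tfap2c had implied levels of 1409 and 2145, Krt8 173 and 3633 and Krt18 192 and 2979 from the authors' deposited table. In the fibroblast and mesoderm list, Tagln had implied levels of 58.6 and 3640 and Vim 4701 and 4097 from the authors' deposited table. In the definitive endoderm list, Trh had 4368 and 9895 and Kit 2292 and 1691, so none of these sums describes its list as a whole. Epiblast markers lay on the side of Hnf4a: 8 of 9 passed, all positive, such as Zfp42 at 1.10 ± 0.09 and Esrrb at 0.91 ± 0.13 (SE), the median from the authors' deposited table was 0.73, and their part in its difference was likewise not tested. Over the 8 primitive endoderm genes, the implied levels summed to 151 in the numerator and 317 in the denominator group from the authors' deposited table. Without Dab2 the sums were 97.1 and 75.2, and without Dab2 and Hnf4a 61.0 and 71.3, so leaving out Dab2 alone turned the direction of the sum.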

How the data were processed

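Polyadenylated RNA of 6 samples was sequenced as paired ends on a DNBSEQ platform, per the labels' protocols. Per the submitters' processing notes, the tools were FastQC 0.12.1, Trimmomatic 0.39, STAR 2.7.11b, RSEM 1.3.3 and DESeq2 1.45.3, with the build GRCm39. The annotation, the model formula and the reference group are not given in the sources used here.

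All values come from the authors' comparison table, read by its DESeq2 column names per the file headers. The authors deposited a mean normalized count per gene, a signal pooled over libraries. Fold changes and standard errors were deposited as log2 values. The deposited statistic is a score, equal to their ratio within 5.8e-07. The p-value and adjusted p-value are those the authors deposited. The tests are thus the authors' Wald tests, over 17110 genes. The authors' own calls also required an absolute log2 fold change over 0.5, a limit not applied to the genes said to have passed. Fgfr1, Etv5, Ap2b1, Apoe and Lamb1 passed in this sense but were not called changed by the authors. The same holds for Grb2, Ptpn11, Mapk3, Sall4 and Pou5f1, which are inside the counts of their lists. RSEM estimates counts per gene, so transcripts from alternative starts are summed. A separate count table has 6 columns whose run and barcode names match no label, so they were not used. Depth and spread per library are therefore unknown here, and the planned count-based tests were not run. The precision is given by the authors' standard error, and replicates are those of the labels.

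From the deposited values were computed 95% Wald intervals, the implied group levels (the mean count divided between equal groups by the fold change), the fold change needed to pass, and mean counts per kilobase of the longest GENCODE M21 transcript, matched by Ensembl ID for 16795 genes. Python 3.11.15, pandas 2.3.3 and scipy 1.17.1 were used. Of the calculations, only the Wald p-values and their adjustment, used in the recomputed settings, were tested on simulated fold changes. Members and gene lists were chosen with earlier results of these data known. Named were all members, the genes of each list with the smallest p-values past the threshold (up to 2 per direction) and preset partners, except some listed genes that are not reported here. Nid1, Lamb1, Col4a2, Apob, Spink1, Rbp4, Ihh, Trf, Otx2, Vim, Thy1, Kit, Chrd and the genes named as having no row were added after their values were seen. So were Gata2, Gata3, Tfap2c, Tead4, Krt18, Grb2, Ptpn11, Mapk3, Sall4 and Pou5f1. Alternatives were other thresholds, a minimum mean count of 50, a recomputed adjustment and other centres of the fold changes.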

Additional observations from a re-analysis of the deposited data

How the results depend on the processing

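Results were recomputed at an adjusted p-value under 0.01, with a log2 fold change over 0.5 or over 1, with a minimum mean count of 50, with a recomputed adjustment, and after centring on all genes or on 76 ribosomal protein genes (a shift of 0.093). The centrings gave 16 new fold changes of the primitive endoderm genes, of which 15 kept their direction. The exception was Sox7, which turned to -0.026 after ribosomal centring, without a call on either side. The other settings do not alter a fold change, and no gene tested under them changed its side of the threshold. With a minimum mean count of 50, 1 gene was called in place of 2, because Dab2 alone remained to be tested. The FGF and ERK genes called went from 8 to 3 at a log2 fold change over 0.5, the limit of the authors' own calls, and to 2 over 1. At the limit of 1, the calls also went from 16 to 10 for the parietal, visceral and anterior visceral endoderm genes together. Calls for the partners, family members and other primitive endoderm genes together went from 12 to 5. The stricter limits themselves produce these falls. Other counts stayed within 1.5 times. Other normalizations, count filters and fits that leave out a replicate were not run, for want of columns tied to samples. No paired analysis was possible because neither deposited table ties a value to a numbered replicate. The low counts of 7 of the 8 genes limit every statement on them.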

Other observations

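Endothelial markers were examined because Sox7 and Sox17 also act in vessels. Of 10 listed, 7 had a row and 3 passed in the authors' deposited table. Tek and Pecam1 were positive at 1.30 ± 0.18 and 1.12 ± 0.24 (SE) in the authors' deposited table, and Flt1 was negative at -3.28 ± 0.39 (SE). Cdh5, Erg and Emcn had no row used here. Pecam1 is also a surface protein of embryonic stem cells. Of 6 node and notochord genes, the tissue that shares Foxa2 with endoderm, 3 had a row, and T and Foxj1 were negative at -6.56 ± 0.79 and -1.57 ± 0.33 (SE) in the authors' deposited table. Chrd, the third, had 0.66 ± 0.31 (SE) there and did not pass (adjusted p = 0.1).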
